A study of Mus musculus with 768 samples.

Results

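The levels of 7 genes of 3 neuronal families were followed in mouse cochlear organoid cells: the neurofilament genes Nefm, Nefl and Nefh, the nicotinic acetylcholine receptor subunit genes Chrna3, Chrna5 and Chrnb4, and the enkephalin precursor gene Penk. They were picked by symbol, with earlier results of these data known, and all 7 of the 52636 genes listed in the deposited tables were found and passed the filter on low counts that left 17466 genes for testing. Lower levels of Nefm, Chrnb4 and Penk on day 7 than on day 3 were among the values that led to the choice, so values of day 7 against day 3 are given below as a description. The cells came from the greater epithelial ridge, the epithelium on the inner side of the organ of Corti, of mice carrying Sox2-GFP, Fgfr3-CreERT2 and an Ai14 tdTomato reporter, taken on postnatal day 2 and enriched by flow cytometry. All groups shared this strain and a DMEM/F-12 medium. The medium held the growth factors IGF1, EGF and FGF2, valproic acid, CHIR99021 (which inhibits GSK3) and 616452 (which inhibits the TGFβ receptor). It also held 2-phospho-L-ascorbic acid, ampicillin, N-2 and B-27. Culture time is the difference between groups that the labels name. The days were also unevenly divided between the deposited files, as given below. Cells were picked by hand after trypsin treatment on day 1 (192 cells from 3 cultures), day 3 (255 cells from 3 cultures) and day 7 (321 cells from 5 cultures). Libraries were made per cell with SmartSeq2, which reads whole transcripts and neither marks the strand nor counts molecules. The day and replicate number in the labels were taken as the culture. The labels do not say whether cultures held cells of different animals, so p-values measure only the spread between cultures, which may be technical.

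Neurofilaments are intermediate filaments that set the calibre of axons. They are heteropolymers built around the light chain (NF-L, from Nefl), with the medium (NF-M, from Nefm) and heavy (NF-H, from Nefh) chains carrying long side arms. Nicotinic receptors are cation channels built of several subunits, which in ganglia are alpha and beta subunits. The α3 and β4 subunits form the main receptor of autonomic ganglia, and α5 is an accessory subunit that joins such receptors without binding acetylcholine in the usual way. Penk encodes proenkephalin, which is cut into the opioid peptides Met- and Leu-enkephalin. In the inner ear, neurofilaments are best known from spiral ganglion neurons, and the nicotinic receptor of hair cells is made of other subunits, α9 and α10.

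After cell filtering 711 cells remained, with 182, 228 and 301 on days 1, 3 and 7. The median cell had 703264, 786776 and 876145 reads on genes, and a culture between 26391412 and 72483565. The summed level of 9 markers of the greater epithelial ridge and tectorial membrane was 9130 to 13656 CPM (counts scaled to library size and composition) in the day 1 cultures and 2050 to 3914 in those of day 7, with Ceacam16 at 3 reads or fewer in all cells. A read of Epcam or Cdh1, epithelial adhesion genes, was found in 96.6% to 100% of the cells that had a read of any given gene among the 7. The share over all retained cells is not given, so this value does not set those cells apart from the others. Proliferating cells, defined by reads in at least 3 of 6 cell cycle genes, made up 22.5%, 66.7% and 62.1% of the retained cells. Between the day 7 cultures this share ran from 26.7% (culture 5) to 86.1% (culture 3). The deposited tables were 2 files. The first held culture 1 of days 1 and 3 with cultures 1 to 4 of day 7, and the second the other 5 cultures. Culture 5, the only day 7 culture of the second file, had the lowest median of genes per cell (5681) among all cultures. It also had the highest median share of mitochondrial reads (6.76%).

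The neurofilament medium chain gene Nefm was among the better read of the 7 on days 1 and 3 and was nearly lost on day 7. Nefm (ENSMUSG00000022054.11) lies on the minus strand of chromosome 14 from 68082590 to 68124846 (GRCm38, GENCODE M21). Its summed level was 36.0, 18.9 and 93.4 CPM in day 1 cultures 1 to 3, 60.8, 99.5 and 109.0 CPM in the day 3 cultures, and 0.217, 1.55, 1.59, 1.80 and 2.34 CPM in day 7 cultures 1 to 5. Day 1 and day 3 overlapped, because day 1 culture 3 was above day 3 culture 1, and every day 7 culture was below every earlier one. The means were 49.5 ± 39.0 (SD, n = 3), 89.8 ± 25.6 (n = 3) and 1.498 ± 0.782 CPM (n = 5). Nefm fell from day 1 to day 7 (log2 -5.02, SE 0.60, edgeR quasi-likelihood test, adjusted p = 0.00117). The change from day 1 to day 3, log2 0.86 (SE 0.62), did not pass the test (adjusted p = 0.754). Within the first file alone the day 7 value was log2 -4.83 with adjusted p = 0.119, and within the second it was -4.58 with adjusted p = 0.0891, so the call was lost in each file taken alone.

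The light chain gene Nefl (ENSMUSG00000022055.7, plus strand of chromosome 14, 68083863 to 68089095) had the same course at a lower level. Its level was 8.54, 4.30 and 14.4 CPM on day 1, 4.22, 21.4 and 22.8 CPM on day 3, and 0, 0.066, 0.0542, 0.0883 and 0 CPM on day 7. Of the earlier cultures, day 1 culture 2 and day 3 culture 1 were the lowest of their days, and all day 7 cultures were below them. Only 11 reads of Nefl were counted in all 301 day 7 cells, against 947 on day 1 and 2538 on day 3. Nefl fell from day 1 to day 7 (log2 -7.67, SE 0.91, adjusted p = 0.00117), a size that rests on those 11 reads. The call was lost within the first file alone (log2 -7.28), which holds 1 day 1 culture. The second file holds 1 day 7 culture, with 0 reads of Nefl, so its value of log2 -12.0 rests on that count of 0. The day 3 level was log2 0.83 above day 1 (SE 0.81, adjusted p = 0.842), and this log2 value turned to -1.06 within the first file alone.

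Nefm and Nefl overlap in the annotation. The last exon of 1 of the 2 Nefm transcripts crosses the first exon of Nefl, on the opposite strand, over 1108 bases from 68083863 to 68084970. That stretch is 32.8% of the Nefl exon length and 19.2% of that of Nefm. As the library does not mark strand, reads from it cannot be told apart. The deposited expected counts were not whole in 3 of the 63 cells with Nefl and in 3 of the 202 with Nefm, before cell filtering. How far the shared stretch links the values of the pair was not tested, and this applies to each statement on both genes.

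The heavy chain gene Nefh was near the floor of detection. Nefh (ENSMUSG00000020396.8, chromosome 11, 4938754 to 4948064, minus strand) had 119, 69 and 17 reads in the sums of the 3 days. Its level was 1.13, 1.26 and 0 CPM on day 1, 0.518, 0 and 0.699 CPM on day 3, and 0.279, 0, 0, 0.118 and 0 CPM on day 7. Cultures without a read were present on each day, so the days overlapped. A culture on day 7 could hold 0.0401 to 0.099 CPM with 3 reads, the limit that a count of 0 allows. The change from day 1 to day 7 was log2 -3.32 (SE 1.95, adjusted p = 0.328).

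**Figure D1:**
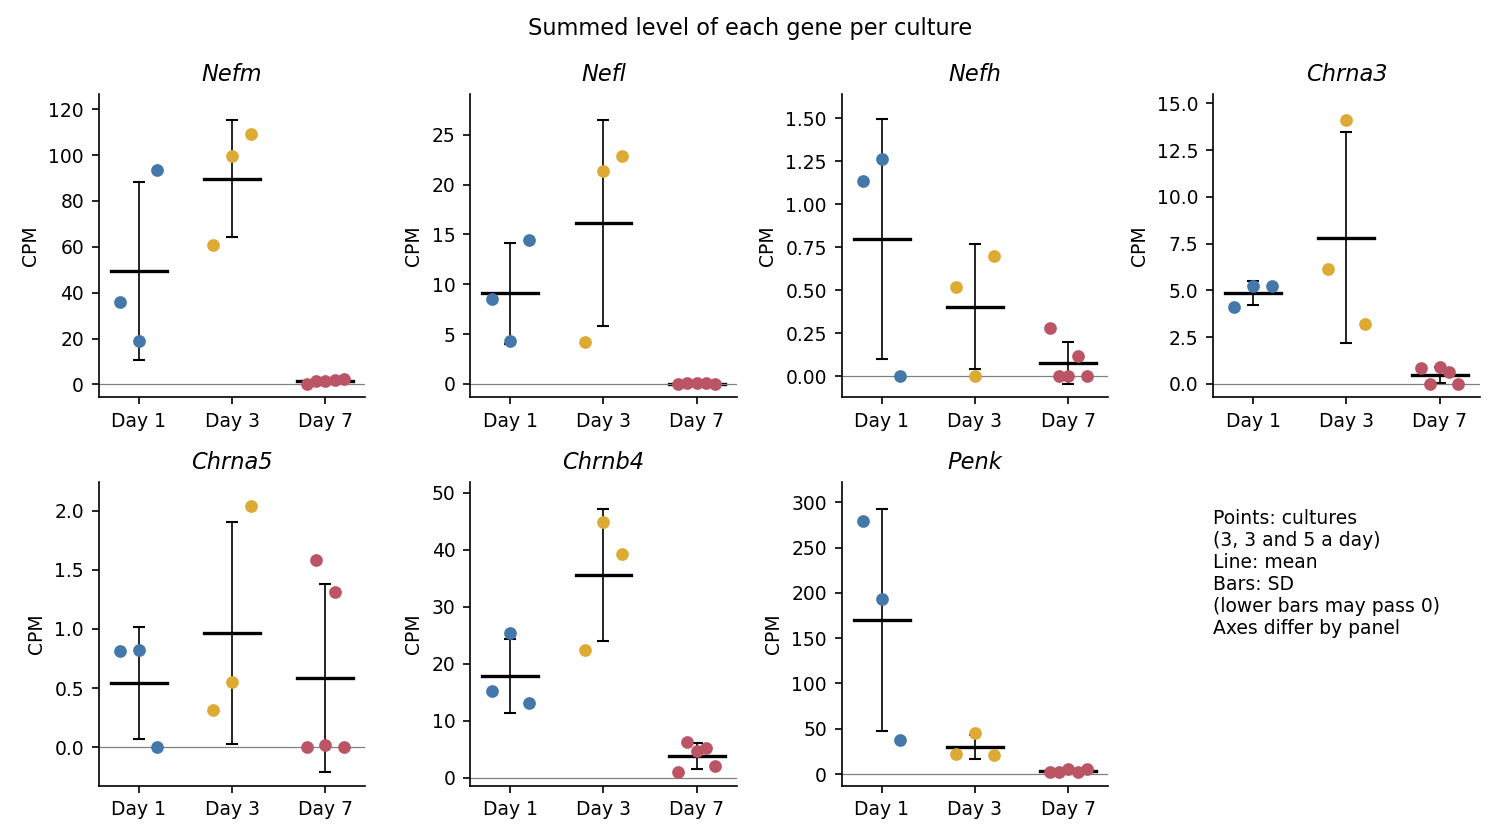
Summed level in CPM (vertical axis, linear, differing by panel) of each of the 7 genes by culture day; each point is a culture, the line is the mean and the bars are the SD (n = 3, 3 and 5). The day 7 cultures lie below every earlier culture for Nefm, Nefl, Chrna3, Chrnb4 and Penk and overlap them for Nefh and Chrna5.

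Chrnb4 was the most abundant of the 3 nicotinic subunit genes, which stand side by side on chromosome 9. Chrna5 (ENSMUSG00000035594.10, plus strand, 54980880 to 55007779) is followed by Chrna3 (ENSMUSG00000032303.7, minus strand, 55010111 to 55026562) and Chrnb4 (ENSMUSG00000035200.7, minus strand, 55028154 to 55048779). The 250 bases before a RefSeq start of each are shown because many cells with Chrna3 also had Chrnb4, as described further down, while their neighbour Chrna5 was read in few cells. Of the 7 genes, 3 had a promoter in the RefSeq table used (GRCm38.p6), and Chrna5 had 2 starts. The RefSeq start of Chrnb4 and the second of Chrna5 lie 235 and 608 bases inside the genes as placed above, so 235 and all 250 bases of those windows are within the annotated genes. Capitals mark GGGCGG, the core of the GC box, or its reverse complement, and each sequence runs 5′ to 3′ on the strand of its gene.
Chrna3, chr9:55026563-55026812, minus strand: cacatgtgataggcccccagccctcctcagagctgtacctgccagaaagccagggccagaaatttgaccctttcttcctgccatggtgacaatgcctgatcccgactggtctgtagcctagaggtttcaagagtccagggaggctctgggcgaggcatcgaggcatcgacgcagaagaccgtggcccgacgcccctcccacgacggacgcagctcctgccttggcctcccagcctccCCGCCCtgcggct
Chrnb4, chr9:55048545-55048794, minus strand: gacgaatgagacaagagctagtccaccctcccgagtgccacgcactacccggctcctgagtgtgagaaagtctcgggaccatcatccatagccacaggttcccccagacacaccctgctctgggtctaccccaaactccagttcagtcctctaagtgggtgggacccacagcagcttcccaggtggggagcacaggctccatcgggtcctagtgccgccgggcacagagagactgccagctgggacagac
Chrna5, second start, chr9:54981238-54981487, plus strand: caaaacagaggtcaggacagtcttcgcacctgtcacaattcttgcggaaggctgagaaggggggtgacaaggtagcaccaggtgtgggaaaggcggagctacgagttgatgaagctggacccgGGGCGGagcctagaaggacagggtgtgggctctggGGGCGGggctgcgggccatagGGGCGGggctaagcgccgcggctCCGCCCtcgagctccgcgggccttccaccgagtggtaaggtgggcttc

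GGGCGG was found 1 time before Chrna3, 4 times before the second start of Chrna5 and not before Chrnb4. Among 32851 promoter windows of the same length, 32.7% held it on either strand. The other motifs searched, on both strands, were TGANTCA (the AP-1 site), TGACGTCA and TGCGTCA (full and variant cAMP response elements) and TATAAA (the TATA box), which 6.75%, 1.55%, 1.75% and 12.4% of the windows held. None of these 4 was found in the 3 windows printed. The first start of Chrna5 (chr9:54980630-54980879) held TGCGTCA 1 time and no GGGCGG. Sequence composition also differed, with a GC content of 63.2% before Chrna3, 61.2% before Chrnb4, and 65.2% and 40% before the second and first start of Chrna5.

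The level of Chrnb4 was 15.1, 25.3 and 13.1 CPM in the day 1 cultures, 22.5, 44.8 and 39.2 CPM in the day 3 cultures, and 0.929, 6.17, 4.64, 5.12 and 1.95 CPM in the day 7 cultures. Day 1 culture 2 was above the lowest day 3 culture, and all day 7 cultures were below all others. The means were 17.8 ± 6.54 (n = 3), 35.5 ± 11.6 (n = 3) and 3.76 ± 2.22 CPM (n = 5). Chrnb4 fell from day 1 to day 7 (log2 -2.25, SE 0.51, adjusted p = 0.0220). This call was lost without day 1 culture 2 (log2 -1.90, adjusted p = 0.0885), with the file as a term (adjusted p = 0.0594), and within either file (adjusted p = 0.356 and 0.0526). The day 3 value was log2 0.99 above day 1 (SE 0.58, adjusted p = 0.666).

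Without proliferating cells the change of Chrnb4 from day 1 to day 7 was log2 -0.069 (edgeR, adjusted p = 0.990). The share of thinned non-proliferating cells with a read was 27.4% of 135 on day 1 and 10.7% of 112 on day 7. The fitted value therefore does not show that Chrnb4 stayed level in these cells. On day 7, 86.7% of the Chrnb4 reads were in the 114 non-proliferating cells, against 64.9% in 76 such cells on day 3 and 74.9% in 141 on day 1. Day 7 sums of this kind rest on few cells, since 1 cell held 100%, 82.9%, 77.4%, 37.4% and 95.2% of all Chrnb4 reads in day 7 cultures 1 to 5, with the smallest share in culture 4, which had the most reads (348).

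Chrna3 was lower on day 7 in the same way, without passing the test. Its level was 4.12, 5.22 and 5.22 CPM on day 1, 6.12, 14.1 and 3.22 CPM on day 3, and 0.837, 0, 0.903, 0.633 and 0.0134 CPM on day 7. No day 7 culture reached an earlier one. The change from day 1 to day 7 was log2 -3.34 (SE 1.08, adjusted p = 0.0827), and it passed with DESeq2 (adjusted p = 0.00842), with limma on mean CPM per cell (0.0108), with cells thinned to an equal depth (0.0420) and without proliferating cells (0.0263). In the day 3 cultures the largest value, 14.1 CPM in culture 2, carried the excess over day 1: the log2 value of 0.69 (adjusted p = 0.925) became -0.050 without it.

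Chrna5 was read in few cells and showed no order of days. Its level was 0.813, 0.822 and 0 CPM on day 1, 0.314, 0.547 and 2.04 CPM on day 3, and 0, 1.58, 0.0181, 1.31 and 0 CPM on day 7. The days overlapped throughout. The change from day 1 to day 7 was log2 0.09 (SE 1.87, adjusted p = 0.985), and its sign turned under 10 of 26 other settings. The interval of this change was too wide to show whether Chrna5 moved with its neighbours.

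Penk had the highest mean level of the 7 genes on day 1, and its mean was lower at each later day. In day 1 culture 3, Nefm (93.4 CPM) was above Penk (37.3 CPM). Penk (ENSMUSG00000045573.9, minus strand of chromosome 4, 4133531 to 4138819) shares 233 exon bases, 14.3% of its exon length, with the plus-strand gene A830012C17Rik, and reads from those bases cannot be told apart. Its level was 279.6, 193.6 and 37.3 CPM on day 1, 22.6, 45.7 and 21.5 CPM on day 3, and 2.48, 1.95, 5.18, 2.15 and 5.11 CPM on day 7. Day 1 culture 3 fell within the day 3 range, and day 7 lay below all others. The means were 170.2 ± 122.8 (n = 3), 29.9 ± 13.7 (n = 3) and 3.37 ± 1.63 CPM (n = 5). Penk fell from day 1 to day 7 (log2 -5.64, SE 0.59, adjusted p = 0.000570). The call was lost within the second file alone (log2 -4.50, adjusted p = 0.117) and without proliferating cells (log2 -4.24, adjusted p = 0.105). From day 1 to day 3 the value was log2 -2.51 (SE 0.63, unadjusted p = 0.00169, adjusted p = 0.229 with edgeR, adjusted p = 0.000973 with DESeq2).

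Across the 7 genes, edgeR called 0 for day 3 against day 1, a comparison in which it called 0.0115% of all genes. At an unadjusted p under 0.05 it was 1 gene, Penk, beside 9.26% of all genes, and Penk was also the 1 gene called by DESeq2, which called 1.48% of all genes. For day 7 against day 1 the test called 4 of the 7 lower (Nefm, Nefl, Chrnb4 and Penk) and 0 higher, while 3.56% of all genes were called lower, 3.55% higher and 7.11% in either direction. The cultures did not overlap, with day 7 lower, for 5 of the 7, against 9.06% of all genes. The median change of the 7 genes was log2 -3.34, beside 0.0028 over all genes. Within the first file alone 1 of the 7 was called (Penk), beside 0.0794% of all genes, and within the second 1 (Nefl), beside 0.656%. The first file holds 1 culture of day 1 and the second 1 of day 7, so each call within a file rests on 1 arm without replicates. The 3 comparisons share cultures, among them the day 7 cultures whose low values led to the choice, so the counts of calls are not independent of it.

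For day 7 against day 3, where the choice was made, the log2 values were -5.88 for Nefm, -8.50 for Nefl, -2.35 for Nefh, -4.03 for Chrna3, -0.73 for Chrna5, -3.24 for Chrnb4 and -3.14 for Penk. All 7 values were below 0, and 5 genes had no overlap. In this comparison 5.14% of all genes had none with day 7 lower and 0.784% were called lower. It is the comparison that led to the choice, so these counts are a description and give no support. The plot of fitted changes sets the 3 comparisons side by side. For Nefm, Nefl, Chrna3 and Chrnb4 the fitted day 3 value was at or above that of day 1. For Penk it was below, so that the fitted value of Penk was lower at each step (log2 -2.51 and then -3.14). None of these day 3 values passed the edgeR test against day 1. The difference between the 2 courses was not tested.

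**Figure D2:**
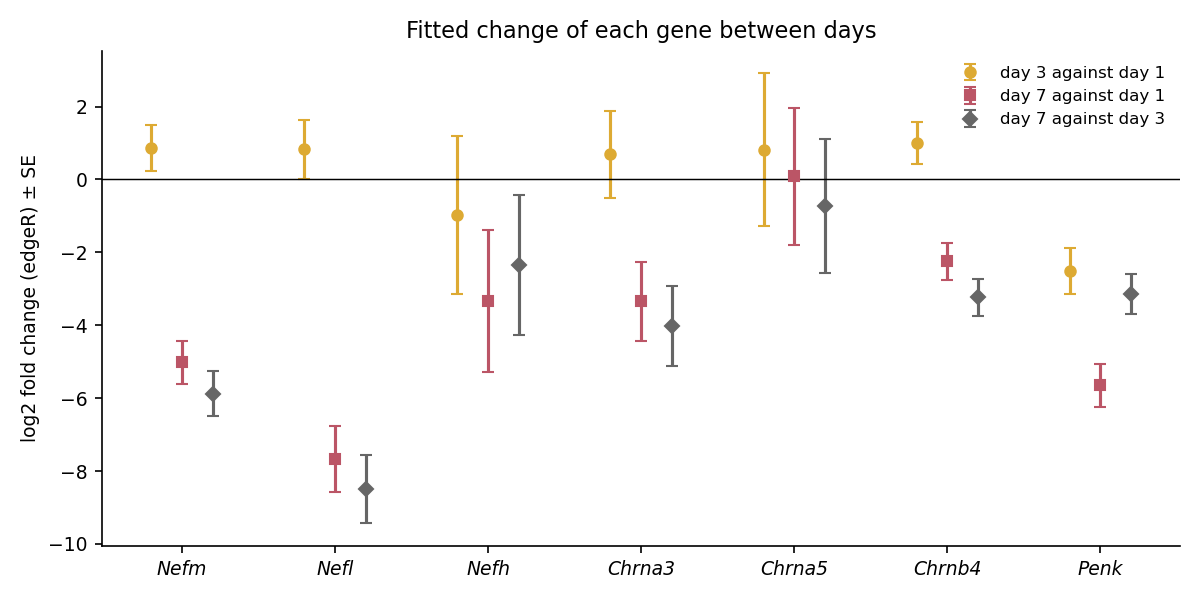
Fitted log2 fold change (vertical axis) with its SE for each of the 7 genes and 3 comparisons, from 1 edgeR fit over 11 cultures. Day 7 against day 1 (squares) reached -7.67 for Nefl and -5.64 for Penk, and the wide bars of Nefh and Chrna5 cross 0 or come close to it.

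Per kilobase of exon, which allows levels of different genes to be compared, the order on day 1 was Penk (104.1 ± 75.2 CPM per kb), Nefm (8.55 ± 6.74), Chrnb4 (4.79 ± 1.76), Nefl (2.69), Chrna3 (0.922 ± 0.120), Nefh (0.200 ± 0.174) and Chrna5 (0.174 ± 0.151), with the SD over 3 cultures; the Nefl cultures ran from 1.27 to 4.27. The mean ± SD of Nefm, Chrnb4 and Nefl overlapped one another, as did those of Nefh and Chrna5, while Penk and Chrna3 overlapped no other gene. On day 3 the order began with Penk (18.3 ± 8.39 CPM per kb), Nefm (15.5 ± 4.42) and Chrnb4 (9.54 ± 3.12), and the mean ± SD of all 3 overlapped. With the longest transcript in place of all exons, Nefm (24.4 CPM per kb) stood above Penk (20.7) on day 3. On day 7 the highest were Penk (2.07 ± 1.00 CPM per kb) and Chrnb4 (1.01 ± 0.597), which overlapped, ahead of Nefm (0.259 ± 0.135), whose highest culture (0.404) was above the lowest of Chrnb4 (0.250). Nefl, at 0.0123 CPM per kb, was the lowest on day 7 beside Nefh at 0.0199.

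The share of cells with a read was compared after thinning every cell to 200000 reads, which left 175, 222 and 298 cells on the 3 days. Nefm was found in 42.2% ± 16.3 of cells on day 1, 37.2% ± 7.53 on day 3 and 5.90% ± 2.21 on day 7 (SD over 3, 3 and 5 cultures). Penk was found in 70.5% ± 15.5, 36.3% ± 5.46 and 9.33% ± 7.97 of cells. In day 1 culture 3 Nefm was found in more cells (60.5%) than Penk (52.6%). Chrnb4 was found in 25.9% ± 6.21, 26.1% ± 5.28 and 6.24% ± 3.43 of cells.

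Among the scarcer genes, Nefl was found in 12.1% ± 4.11, 12.2% ± 7.45 and 0.513% ± 1.15 of cells, and Chrna3 in 8.87% ± 3.68, 7.35% ± 4.68 and 1.58% ± 1.06. Nefh was found in 2.85%, 1.79% and 0.769% of cells and Chrna5 in 1.03%, 3.66% and 2.13%. For Nefm, Nefl, Chrna3, Chrnb4 and Penk every day 7 culture had a smaller share than every day 1 culture, which gives p = 0.0179 in an exact two-sided permutation test, the smallest p that 3 against 5 cultures allow. After adjustment over the 14 tests made, these 5 stood at adjusted p = 0.05 in the exact test, which is not under the threshold. With an exact test of 3 against 3 cultures no p under 0.1 is possible, and Penk and Chrna5 reached that value for day 3 against day 1.

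On day 3 neither the shares of cells nor the fitted levels of Nefm, Nefl, Chrna3 and Chrnb4 passed a test against day 1. Shares of cells with Nefm, Nefl, Chrna3 or Chrnb4 differed between days 1 and 3 by at most 4.94 percentage points (Nefm), with exact permutation p between 0.7 and 1, while their fitted levels on day 3 were 1.61 to 1.99 times those of day 1 (edgeR, adjusted p = 0.666 to 0.925). Whether the 2 measures differ was not tested. Among cells with a read, the median after thinning was 9 reads of Nefm on day 1 and 12.5 on day 3, 5 and 13 of Nefl, and 8 and 20.5 of Chrna3. It was 12 on both days for Chrnb4, whose upper quartile went from 21 to 37 reads. For Penk the median was 16, 10.5 and 4 reads on days 1, 3 and 7, beside the smaller share.

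**Figure D3:**
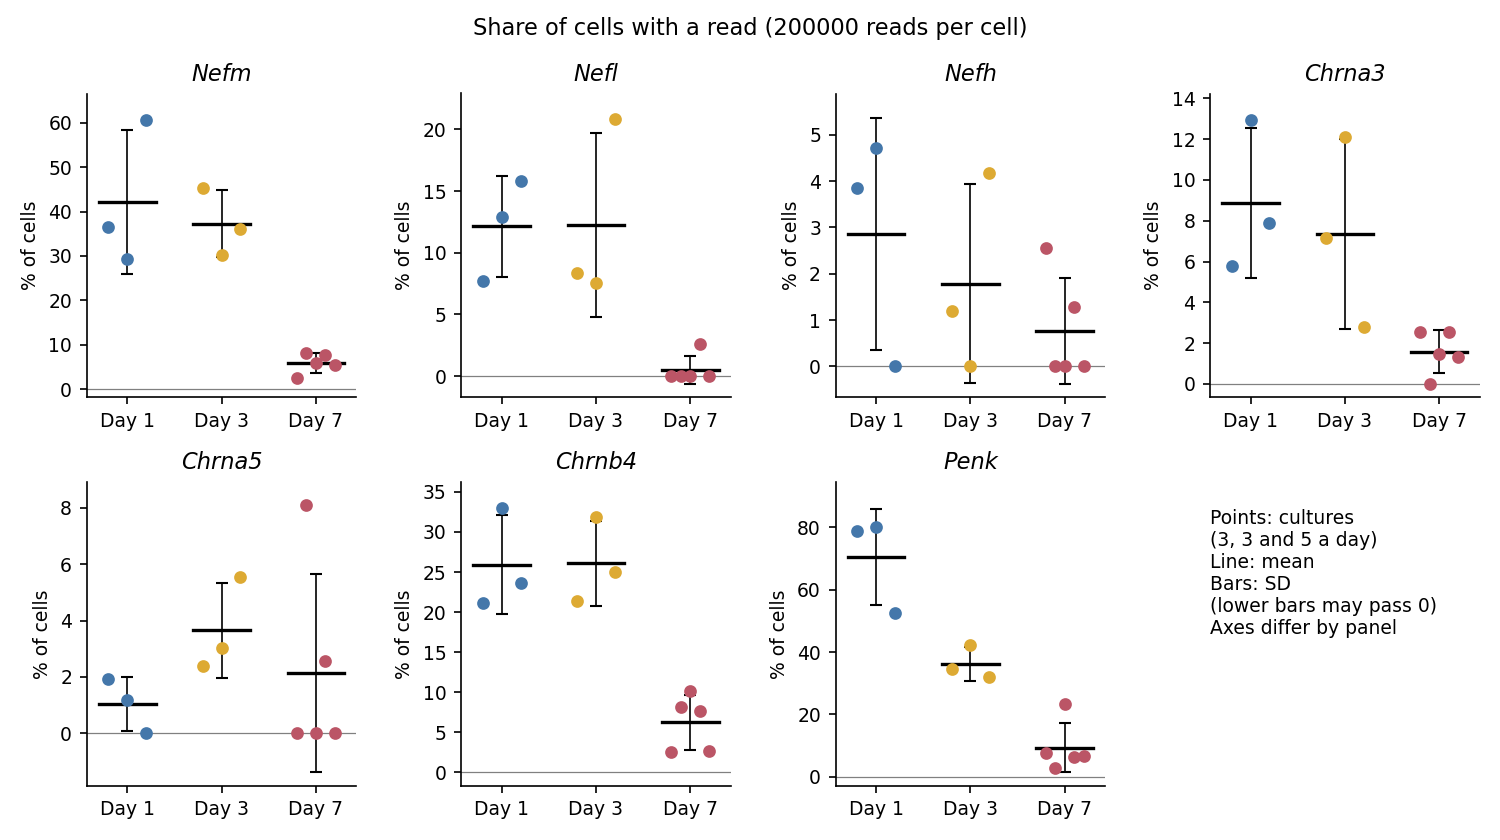
Percent of cells with at least 1 read after thinning to 200000 reads (vertical axis, differing by panel) by culture day; points are cultures, the line is the mean and the bars are the SD. Shares of Nefm, Nefl and Chrnb4 on days 1 and 3 overlap and those of day 7 lie lower, while Penk steps down from 70.5% to 36.3% to 9.33%.

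Single cells carried much of some sums. In day 3 culture 2, 1 cell held 61.6% of the Nefm reads (3136 of 5091) and 1 cell held 71.3% of the Nefl reads. In day 1 culture 1, 1 cell held 62.5% of the Penk reads (6011 of 9625) and 1 held 83.3% of the Nefl reads. Leaving out the top cell of each culture, Nefm was at 40.3 ± 31.4, 55.4 ± 22.2 and 0.466 ± 0.405 CPM, and Penk at 100.4 ± 64.6, 25.6 (16.1 to 41.7) and 1.70 ± 1.48 CPM. Nefl went from 9.09 to 4.95 CPM on day 1 and from 16.1 to 8.49 on day 3, and Chrna3 from 4.85 to 2.13 on day 1 and from 0.477 to 0.0199 on day 7. The day 7 cultures of Chrnb4, 0.929 to 6.17 CPM with all cells, were at 0 to 3.25 CPM. Without those cells the day 7 cultures of Nefm, at most 0.954 CPM, still lay below the lowest earlier one, at 17.0 CPM.

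Nefl cells often had Nefm, and Chrna3 cells often had Chrnb4, which did not hold for every pair within a family. Of the 21 cells with Nefl on day 1, 66.7% also had Nefm (95% exact interval 43.0% to 85.4%), against 34.4% of the cells without Nefl. On day 3 it was 92.6% of 27 cells (75.7% to 99.1%) against 30.3%. The excess was seen in 3 of 3 cultures on each of these days, and the exon overlap of the pair applies here too. Nefm was found in 2 of 6 Nefh cells on day 1 (33.3%, against 38.5% of the others), 1 of 4 on day 3 (25% against 38.1%) and 0 of 2 on day 7.

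For Chrna3 and Chrnb4, which share no exon bases, 70.6% of 17 cells with Chrna3 on day 1 also had Chrnb4 (44.0% to 89.7%), against 22.8% of the other cells. On day 3 it was 87.5% of 16 cells (61.7% to 98.4%) against 20.9%, again in 3 of 3 cultures on each day. Chrnb4 was the wider of the pair: 36 of its 48 cells on day 1 and 43 of 57 on day 3 had no read of Chrna3. On day 7, 1 of 5 Chrna3 cells had Chrnb4. Of the 8 day 3 cells with Chrna5, 4 had Chrnb4 and 1 had Chrna3, and of the 2 on day 1 neither gene was found.

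Between families 3 pairs were compared. Nefm was found in 33.3% of the 48 Chrnb4 cells on day 1 and in 40.2% of the others, and in 43.9% and 35.8% on day 3. Penk was found in 79.2% of the Chrnb4 cells and 71.7% of the others on day 1, and in 54.4% and 29.7% on day 3. Nefm was found in 49 of the 129 Penk cells on day 1 and in 39.1% of the others, and in 46.3% and 33.1% on day 3. On day 3 the share was larger in 3 of 3 cultures for each of these pairs, and on day 1 in 1 of 3 for both pairs with Nefm and 3 of 3 for Penk in Chrnb4 cells. Cells of 1 culture share their source and depth, so these shares are descriptions with intervals for counting error only. In all, 12% of the day 1 cells had none of the 7 genes, against 34.7% on day 3 and 76.8% on day 7. Cells with 3 or more of the genes made up 17.7%, 15.8% and 0.336%.

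**Figure D4:**
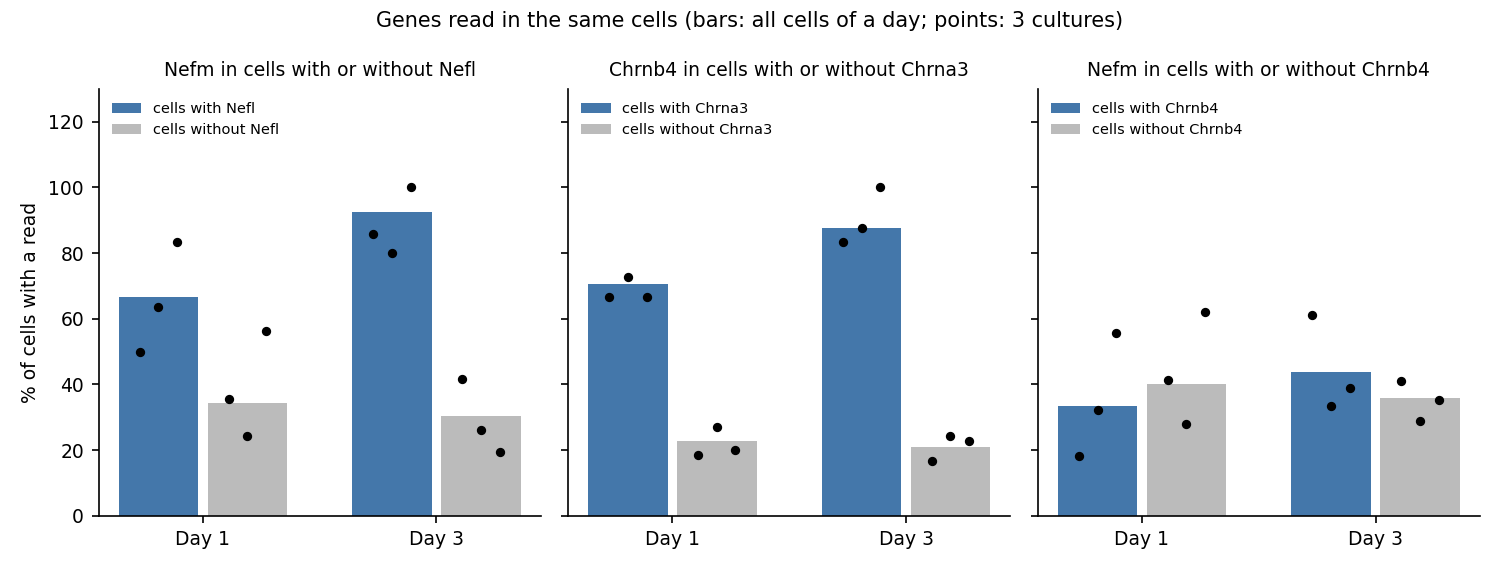
Percent of thinned cells with a read of the second gene among cells with (blue) and without (grey) a read of the first, on days 1 and 3; bars pool the cells of a day and points are the 3 cultures. Nefm in Nefl cells and Chrnb4 in Chrna3 cells stand above the grey bars on both days, while Nefm in Chrnb4 cells (33.3% and 43.9%) is close to 40.2% and 35.8%.

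Hair cell genes were read in part of the cells with Nefl and Nefm. A group of 14 of the 711 cells (3 on day 1, 10 on day 3 and 1 on day 7) had reads in at least 2 of the hair cell genes Atoh1, Pou4f3, Gfi1, Myo7a and Pvalb. These 14 cells held 54.8% of all Nefl reads and 35.6% of all Nefm reads. Of them 10 had Nefl and 11 had Nefm, against 5.87% and 23.2% of the 681 other thinned cells. These pooled shares of the others are lowered by day 7, where 0.337% of the others had Nefl and 5.72% Nefm. On day 3, Nefl was found in 70% of the 10 such cells and 9.43% of the others, and Nefm in 80% and 35.8%. On day 1 both shares were also larger among the 3 such cells, at 66.7% each. The 14 cells held 0 reads of Nefh, Chrna3, Chrna5 and Chrnb4, and 0.711% of those of Penk. Penk was found in 5 of the 14 (35.7%), beside 34.4% of the 681 others, a pooled share that is also lowered by day 7. By day, Penk was found in 66.7% of 3 such cells against 73.8% of the others on day 1. On day 3 it was 30% of 10 against 36.3%, and on day 7 0% of 1 against 10.1%.

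On day 3 the 10 such cells held 64.2% of the Nefl reads and 45.1% of the Nefm reads, and the share of cells with either gene was larger among them in 3 of 3 cultures. For Chrnb4 a count of 0 among 14 cells, which allows a share of up to 21.4%, stands beside 18.2% of the 681 others. By day the others were at 27.9%, 26.9% and 6.40%, so the pooled 18.2% is lowered by day 7. The values of days 1 and 3 lie above 21.4%, but the limit within a day is wider, with 3, 10 and 1 cells. A difference in Chrnb4 was not tested. Without these 14 cells the day 3 value of Nefl against day 1 was log2 -0.11 and that of Nefm 0.13. The day 7 against day 1 calls of both held (log2 -7.52 and -4.96, adjusted p = 0.00492 and 0.00173). The summed level of the 12 hair cell markers was 11.9 to 39.8 CPM on day 1, 22.4 to 143.4 on day 3 and 7.24 to 21.4 on day 7, 1 of 10 tested was lower on day 7 than on day 1, and Tmc1 was at 3 reads or fewer.

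**Figure D5:**
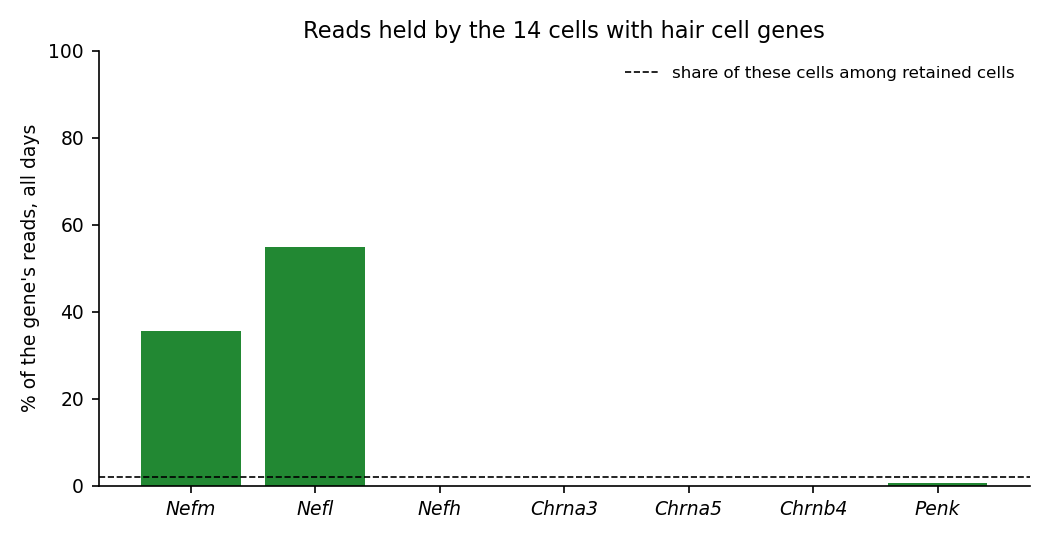
Percent of each gene's reads over all days (vertical axis, from 0 to 100) found in the 14 cells with hair cell genes; the dashed line is the share of those cells among the 711 retained. Nefl stands at 54.8%, Nefm at 35.6%, Penk at 0.711% and the other 4 genes at 0.

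Markers of neurons were lower in sum at each later day, while 5 of the 7 genes had a fitted day 3 value above that of day 1. The summed level of 14 neuron markers was 106.2 to 184.0 CPM in the day 1 cultures, 53.8 to 84.8 on day 3 and 17.7 to 37.9 on day 7. Of the 9 that could be tested, 5 were lower on day 7 than on day 1 and 0 higher, and Slc17a7 was at 3 reads or fewer. Cells with reads in at least 3 of the 14 numbered 59, 29 and 14.

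These cells did not hold most of the reads of every gene. On day 1 they were 59 of 182 cells and held 34.2% of the Nefm reads, 48.5% of Nefl, 46.1% of Chrnb4 and 47.1% of Penk. By share of thinned cells, Nefm was found in 39.0% of them and 37.9% of the others, and Nefl in 16.9% and 9.48%. Chrnb4 was found in 28.8% and 26.7%, and Penk in 79.7% and 70.7%. On day 3 the neuron marker cells were 29 of 228 cells and held 49.2% of the Nefm reads, 59.5% of Nefl and 13.6% of Penk. Nefm was then found in 58.6% of them and 34.7% of the others, Nefl in 27.6% and 9.84%, and Penk in 51.7% and 33.7%. Without the neuron marker cells the values for day 7 against day 1 were as large or close. They were log2 -5.32 for Nefm (edgeR, adjusted p = 0.00442), -7.40 for Nefl (0.00744), -2.55 for Chrnb4 (0.0225) and -5.30 for Penk (0.000653). The excess of Nefm and Nefl on day 3 over day 1 was gone without the neuron marker cells (log2 -0.046 and -0.068). On day 3 the cells with hair cell genes held 64.2% of the Nefl reads, beside the 59.5% above, so some cells were in both groups. The values without each group are therefore not separate results.

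Proliferation divided the cells differently by day. On day 3, Nefm was found in 54.2% of 72 non-proliferating and 30% of 150 proliferating cells, Nefl in 19.4% and 8.67%, and Chrnb4 in 36.1% and 20.7%, with the larger share outside proliferation in 3 of 3 cultures for each. On day 1 no such order held: Nefm was found in 37.0% and 42.5%, and Chrnb4 in 27.4% and 27.5%. On day 7 Chrnb4 was found in 10.7% of 112 non-proliferating and 3.76% of 186 proliferating cells, with the same direction in 4 of 5 cultures. Penk on day 1 was found in 69.6% of 135 non-proliferating and 87.5% of 40 proliferating cells, with day 1 culture 2 going the other way. The part of proliferation, of hair cell genes and of neuron markers in the changes between days was not tested beyond these values.

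Other genes of the same pathways were counted from lists chosen with earlier results known. In the list of 8 further intermediate filament genes 7 could be tested, and 1 was lower on day 7 than on day 1: Vim, the filament of mesenchymal and progenitor cells, at 528.2 ± 106.3 and 275.0 ± 30.8 CPM (log2 -0.94, SE 0.16, adjusted p = 0.00569). Synm, a partner of vimentin, had log2 -1.20 (adjusted p = 0.191). Of 9 genes for transport, phosphorylation and linkage of neurofilaments, 1 was lower, the linker gene Dst (log2 -1.72, SE 0.34, adjusted p = 0.0128, lost without day 1 culture 3 at 0.0628). Plec, a second linker, had log2 -0.95 (adjusted p = 0.0600).

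Of 13 other nicotinic subunit genes 8 could be tested, 2 were lower on day 7 and 0 higher. Chrnb1, the beta subunit of muscle receptors, was at 27.8 ± 8.77 and 10.2 ± 3.77 CPM (log2 -1.44, SE 0.32, adjusted p = 0.0213), and the call was lost without day 1 culture 1 (0.0869) or 2 (0.0666). Chrng, the gamma subunit of fetal muscle receptors, was at 1.69 to 10.3 CPM on day 1 and 0 to 0.0589 CPM on day 7 (log2 -7.85, SE 1.49, adjusted p = 0.0102). The hair cell subunit gene Chrna9 was at 0.853, 3.29 and 0.00883 CPM on the 3 days. Its highest culture on each day was at 2.35, 8.48 and 0.0442 CPM. Chrna10 was at 0, 0.208 ± 0.361 and 1.73 ± 3.49 CPM.

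Of 10 genes for receptor assembly and acetylcholine handling 7 could be tested, and 1 was higher on day 7, Lypd1, a Ly6 family gene (5.50 ± 2.09 and 30.9 ± 14.1 CPM, log2 2.49, SE 0.54, adjusted p = 0.0184). That call was lost without any 1 of day 1 cultures 1, 2 or 3 (0.0908, 0.0511 and 0.0578) and with the file as a term (0.0967), and the sign turned within the second file (log2 -0.079). Tmem35a, which encodes the receptor chaperone NACHO, had log2 1.75 (adjusted p = 0.0521). Chat, the enzyme that makes acetylcholine, had 0 reads in all cells.

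Of 8 other opioid peptide and receptor genes 3 could be tested. Pdyn, Pnoc and Oprd1, which encode 2 further opioid precursors and the delta receptor, had 0 reads in all 711 cells. Ogfr, the opioid growth factor receptor, was higher on day 7 (36.1 ± 6.95 and 70.9 ± 10.5 CPM, log2 0.97, SE 0.21, adjusted p = 0.0183, lost without day 1 culture 1 at 0.0962 or 3 at 0.0787). Pomc had log2 -0.96 (adjusted p = 0.594). Of 12 genes of neuropeptide processing and granules 10 could be tested, all 10 had values below 0, and 1 was called lower, the protease gene Ctsl (log2 -1.21, SE 0.28, adjusted p = 0.0227, lost without day 1 culture 2 at 0.0940 or 3 at 0.0761). Scg5, a chaperone of a prohormone convertase, had log2 -1.27 (adjusted p = 0.0897). In none of these lists was a gene called for day 3 against day 1. The median log2 values for day 7 against day 1 ran from -1.81 (nicotinic subunits) to 0.27 (opioid genes), beside 0.0028 over all genes.

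Of 24 protein-coding neighbours, 3 on each side of each locus, 17 could be tested, 1 was lower on day 7 than on day 1 and 0 higher. It was Sdr16c5, a short-chain dehydrogenase gene near Penk, at 4.58 to 20.3 CPM on day 1, 9.75 to 31.7 on day 3 and 0 to 1.88 on day 7 (log2 -3.56, SE 0.84, adjusted p = 0.0264). With day 1 culture 1 or 2 left out its adjusted p was 0.109 or 0.0634, and 0.0528 with day 7 culture 4 left out, and it was 0.0745 without neuron marker cells. The calls of Vim, Dst, Chrnb1, Chrng, Lypd1, Ogfr, Ctsl and Sdr16c5 were each lost within either file alone and without proliferating cells. The next neighbours of Penk by adjusted p had values such as log2 0.76 for Ubxn2b (adjusted p = 0.0908). Around the nicotinic cluster, Psma4 (122.2 ± 23.0 and 150.9 ± 17.1 CPM on days 1 and 7) and Ube2q2 (32.9 ± 3.73 and 34.1 ± 4.07) had adjusted p = 0.339 and 0.918.

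The genes most like Nefm, Chrnb4 and Penk were ranked by Pearson's r of log2 levels over the 11 cultures among 10698 genes. The cultures fall into 3 days, so r is given as a description, without a p. For Nefm the first was Nefl (r = 0.963), followed by Tmem255b (0.957), Tmsb4x (0.953), Vcam1 (0.952) and Qdpr (0.947). For Chrnb4 they were Nell2 (0.938), Tmsb10 (0.934), Syt17 (0.931), Nefl (0.917) and Nefm (0.912), and Chrna3 ranked 413 with r = 0.704. For Penk they were Fbn2 (0.966), P4ha2 (0.964), Lgals1 (0.960), Itm2c (0.953) and Cdh18 (0.949). Fbn2, which encodes the microfibril protein fibrillin, was at 208.7, 106.8 and 35.1 CPM on the 3 days and also ranked first for Penk by Spearman's rho (0.991).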

How the data were processed

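The authors deposited expected counts (estimated reads per gene and cell, not normalised) for each cell in 2 files. The submitters' processing notes name STAR 2.5.3a, RSEM 1.3.0 and mm10/GRCm38. The annotation release is not given in the sources used here. Counts were rounded, and cells with at least 50000 reads, 1500 genes and at most 20% mitochondrial reads were kept (711). Rows that name no gene (spike-ins and transgenes, 0.00451% of reads) were left out. Counts were summed per culture and tested with edgeR 4.0.16 (TMM, filterByExpr, quasi-likelihood F-test, Benjamini-Hochberg adjustment over 17466 genes, threshold 0.05) in R 4.3.3, after a test on simulated data. Alternatives used DESeq2 1.42.0 and limma 3.58.1. Shares used cells thinned to 200000 reads, with exact permutation tests (scipy 1.17.1). Reads are not independent molecules, so intervals (95%, Clopper-Pearson) and limits of a count of 0 cover counting error only. Of each list, the 2 genes with the smallest adjusted p for day 7 against day 1 were named. Other named genes (Chrna9, Chrna10, Chat, Pdyn, Pnoc, Oprd1, Psma4, Ube2q2) were chosen after their values were seen. The 7 genes and all lists were chosen with earlier results of these data known. Replicate numbers were not used to pair the cultures in the main fit. The deviations of same-numbered cultures correlated at -0.010 to 0.061, within the -0.085 to 0.072 of all pairs of cultures of different days. Of 9 cultures with a partner, 5 correlated best with their own number, so these values do not settle whether the numbers pair cultures.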

Additional observations from a re-analysis of the deposited data

Results flagged for a closer look

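With 5 cultures, day 7 was the only group large enough for a check of single cultures that stand apart. Chance alone also sets some such groups apart, at a rate not worked out here. A culture that is alone above 0 always stands apart by this check. For the share of thinned cells with Nefl, day 7 culture 4 stood apart at 2.56% (2 of 78 cells) while the other 4 cultures were at 0, where 0 allows shares of up to 4% to 8.11%. For the share of cells with Penk, day 7 culture 3 stood apart at 23.2% (16 of 69 cells), and the other 4 cultures were at 2.70% to 7.69%. The median Penk cell of culture 3 had 1 read, and with at least 5 reads required its share was 4.35%, within the 2.70% to 6.67% of the others.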

How the results depend on the processing

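Signs and calls of the 7 genes were recomputed under 26 other settings per comparison. For day 3 against day 1, 173 of 182 gene values kept sign and call, for day 7 against day 1 158 of 182, and for day 7 against day 3 165 of 182 were alike in sign and moved by less than the SD between cultures of a day. Working within a file was chosen after seeing the data, with the spread pooled over days. It leaves culture 1 of days 1 and 3 beside cultures 1 to 4 of day 7 in the first file. In the second it leaves cultures 2 and 3 of days 1 and 3 beside culture 5 of day 7. A comparison with day 7 thus has an arm of 1 culture in either file. The cause of the other changes was not tested. For day 3 against day 1, 2 genes in all were called, and 259 with DESeq2, 69 with limma, 28 without neuron marker cells, 22 with the replicate block, 18 in file 2, 13 with no filter on low counts, 12 with cells thinned, 1 with no scaling, 0 in file 1 or without proliferating cells, and 0 to 5 with 1 culture left out. DESeq2 called 1 of the 7 genes there. For day 7 against day 1, 1241 were called, and 2318 with DESeq2, 125 in file 2, 105 without proliferating cells, 15 in file 1 and 436 to 1380 with 1 culture left out, and of the 7 genes 1 in each file alone. For day 7 against day 3, 169 were called, and 639 with DESeq2, 102 with the file as a term, 96 with the replicate block, 85 without neuron marker cells, 48 without proliferating cells, 20 in file 2, 0 in file 1 and 35 to 174 with 1 culture left out. The replicate block changed no call of the 7 genes, ended those of Chrng, Ogfr and Sdr16c5 (adjusted p = 0.0547, 0.0527 and 0.0909 with edgeR), and 5 of 9 cultures correlated best with their own number.

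Signs turned as follows, in log2. For day 3 against day 1, Nefl was -1.06 in file 1, -0.033 with limma, -0.11 without hair cell gene cells and -0.068 without neuron marker cells, where Nefm was -0.046. Chrna5 was -1.41 in file 1, and with 1 culture left out ran from -0.34 to 1.24 and Chrna3 from -0.050 to 1.06. For day 7 against day 1, Chrna5 was -0.0030 with DESeq2, -0.0069 with RLE scaling, -0.23 in file 1, -7.50 in file 2, -0.66 with the file as a term, -1.63 with the replicate block, -7.10 without proliferating cells and -0.71 to 0.51 with 1 culture left out, and Lypd1 was -0.079 in file 2. For day 7 against day 3, Chrna5 was 1.18 in file 1 and -1.52 to 0.43 with 1 culture left out, and Nefh was 1.20 without proliferating cells. In percentage points, day 3 against day 1, the share of cells with Nefl was -0.639 without thinning and -1.38 at 100000 reads, Chrnb4 was -0.408 without thinning, Chrna3 was 2.16 at 100000 reads and 1.47 with at least 5 reads, and Chrna5 was -0.107 with at least 5 reads. With 1 culture left out these shares ran from -11.3 to 4.24 for Nefm, -4.19 to 2.44 for Nefl, -3.91 to 0.764 for Chrna3 and -2.71 to 3.66 for Chrnb4, and for Chrna5 on day 7 against day 1 from -0.392 to 1.63. No difference named in this paragraph passed the test as fitted in the report except that of Lypd1. Depth limits Nefh, Chrna5 and day 7 Nefl, which rest on 205, 371 and 11 reads.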
